A study of Rattus norvegicus with 6 samples.

Results

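Heat shock proteins of the cytosol and the mitochondria were examined in the rat substantia nigra pars compacta after rotenone. The set holds 10 genes: the small heat shock genes Cryab, Hspb1 and Hspb8, the Hsp70 family genes Hspa8, Hspa4 and Hspa2, the mitochondrial chaperonin genes Hspd1 and Hspe1, the Hsp90 gene Hsp90ab1 and the Hsp40 gene Dnaja1. A probe was taken for a gene where its accession is a rat RefSeq transcript of that gene. By this rule 5 of the 10 genes had a probe, with 6 probes in all, among 4013 genes that could be named on the array. These were Cryab, Hspb8, Hspa4, Hspa2 and Hspe1, the last with 2 probes. Hspb1, Hspa8, Hspd1, Hsp90ab1 and Dnaja1 were not analysed here at the level of expression. All 6 probes passed the filter on dim probes, Hspa4 with the fewest arrays above background (3 of 6).

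Both groups were male Sprague Dawley rats aged 5 months that carried an osmotic minipump under the skin for 28 days. In 3 rats (numbers 16, 13 and 9) the pump delivered 0.5 mg/kg per day of rotenone, which blocks complex I of the respiratory chain. In 3 control rats (numbers 11, 7 and 1) it delivered the solvent alone, which is dimethylsulfoxide and polyethylene glycol with a Pluronic surfactant, so that the controls share the surgery, the anaesthetic and the vehicle. The substantia nigra pars compacta was taken by laser capture, and 2 µg of total RNA per rat was amplified and hybridised to 1 one-colour CodeLink array. The comparison asks how gene expression in this region differs after the pesticide. The dose was continuous and no other dose or time was given, so the groups hold 1 exposure. The captured tissue is a mixture of cells, and in such samples fewer cells of a type and less RNA per cell cannot be told apart.

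Heat shock proteins are chaperones: they bind proteins that are partly unfolded, keep them from clumping, and help them to fold or to be degraded. Small heat shock proteins such as Cryab and Hspb8 hold unfolded proteins without using ATP, while Hsp70, Hsp90 and chaperonin machines refold or mature them with ATP and with co-chaperones. Hspe1 is the lid of the mitochondrial chaperonin chamber built from Hspd1. Many of these genes are switched on by the heat shock factor HSF1, which binds repeats of short inverted GAA units in promoters. Cryab is abundant in oligodendrocytes and is also made by astrocytes, whereas Hspa8 and Hsp90ab1 are made by nearly every cell. Dopamine neurons of this region are the cells lost in Parkinson disease.

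The promoter letters of the genes are shown because they are what this family is known to share. RefSeq promoter windows of the rat assembly GRCr8, which run from 250 bases before to 50 bases after the annotated start, were found for 9 of the 10 genes, all but Cryab. Each window was searched on both strands for a pair of units facing each other, GAANNTTC or TTCNNGAA. A stricter form was 3 alternating units of 3 bases each (GAA and TTC) with 2 bases between neighbours, and every match of this form also holds pair matches. The lines below give the matches in the measured genes, with the units in capitals.
Hspe1 (chr9:64084246-64084295, plus strand): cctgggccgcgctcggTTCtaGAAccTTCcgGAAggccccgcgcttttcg
Hspb8 (chr12:45837269-45837308, plus strand): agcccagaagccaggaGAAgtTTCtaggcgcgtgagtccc
Hspa2 (chr6:100864362-100864401, plus strand): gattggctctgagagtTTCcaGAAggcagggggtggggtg

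The pair was in 7 of the 9 windows, against 15.9% of all 33469 promoter windows of the table. The stricter form was in 4 of the 9 (Hspa8, Hspd1, Hspe1 and Dnaja1), against 0.798% of all windows. The windows of Hspa4 and Hsp90ab1 held neither, which says only that these letters are not within those 300 bases. In Hspe1 the run of 4 units spans 18 bases and begins 65 bases before the start. Hspe1 and Hspd1 are read away from each other from starts 290 bases apart, so their windows overlap by 211 bases and the same 18 bases, at chr9:64084262-64084279, lie 242 bases before the start of Hspd1. These 2 genes therefore count the same letters in both windows. In Hspb8 the pair begins 23 bases before the start and in Hspa2 it begins 64 bases before it. The windows are richer in G and C than most, 56.3% to 76.3% against a median of 51.7% over all windows. A match of letters is a description of the sequence, and no binding was measured here.

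**Figure D1:**
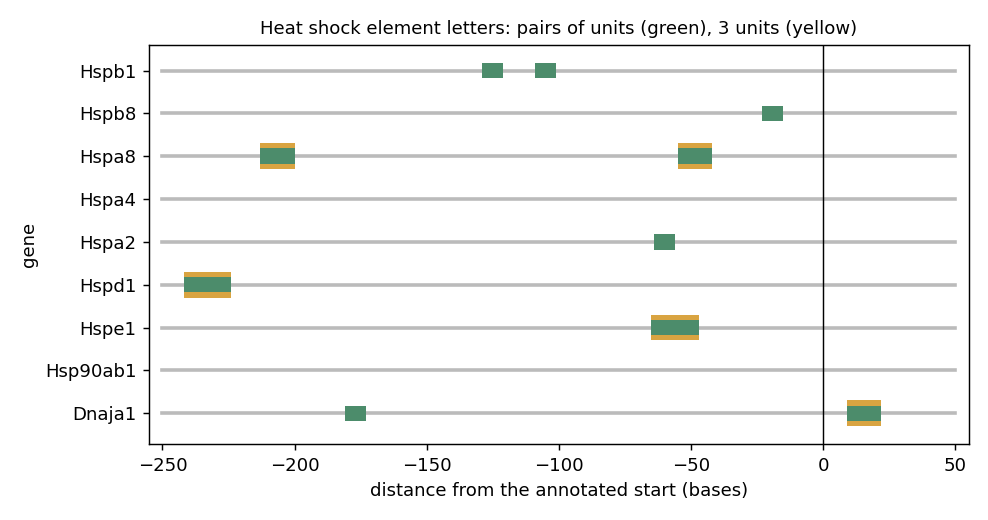
Positions of pairs of GAA and TTC units (green) and of 3 alternating units (yellow, taller) on the promoter window of each of the 9 genes other than Cryab; the x axis is the distance in bases from the annotated start (vertical line), and the grey bar is the window. Matches lie on 7 bars, and the bars of Hspa4 and Hsp90ab1 are empty.

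The arrays were compared before the results were read. Of 33849 probes, 44.2% to 51.5% lay above background per array, and 16708 were tested. The array of rotenone rat 16 stood apart: it had the fewest probes above background (44.2%), the lowest mean correlation with the other arrays (0.953 against 0.968 to 0.972), and it scored 46.8 along principal component 1, where the others lay between -18.6 and -0.48. Many of the differences below are given with and without it. Of the dopamine neuron markers, Th (tyrosine hydroxylase) lay at 12.74 ± 0.22 in solvent and 12.85 ± 0.27 in rotenone rats (log2 intensity, SD, n = 3), and the dopamine transporter Slc6a3, at the 1 of its 2 probes above background, at 12.73 ± 0.11 and 12.53 ± 0.07, without overlap between groups and with an adjusted p of 0.897 by limma. Ddc, Slc18a2, Drd2 and Ret each had a probe above background on all 6 arrays. The transcription factors Nr4a2, Foxa2 and Pitx3 were so on 5, 4 and 3 arrays, Pitx3 on 0 of the rotenone arrays. The probe of Pitx3 was dim in both groups, with means of 6.14 in solvent and 5.97 in rotenone rats. Markers of oligodendrocytes, astrocytes, GABA neurons and microglia were also above background. Snap25 and Aqp4 had a named probe that was not tested, and Cldn5 is not analysed here.

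No member changed by limma's test with Benjamini-Hochberg adjustment over all 16708 probes, and the same held for the array as a whole, on which 0% of probes were called (lowest adjusted value 0.895). Before adjustment 825 probes had a p below 0.05, 4.94% of those tested. The members are therefore described by their values in each rat. Of the 5 genes, each by its probe with the highest mean, 4 had a lower mean with rotenone and 1 a higher one. Among the 4, Hspb8 (-0.00066) and Hspa4 (-0.03) were near 0 and changed sign under some of the alternatives. The median difference of the 5 genes was -0.03 (log2), beside 0.01 over all probes tested, of which 8079 were lower and 8629 higher. Cryab alone had an unadjusted p below 0.05, in the lower direction, where 2.95% of all probes tested fell. Cryab was also the only one of the 6 member probes whose groups did not overlap, against 9.97% of all probes in either direction and 4.89% in the lower one.

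Cryab encodes alpha-B crystallin, a small heat shock protein that is a major soluble chaperone of glia. Its probe GE19706 had a normalized log2 intensity of 8.44, 8.35 and 8.87 in solvent rats 11, 7 and 1, and of 7.35, 8.26 and 8.20 in rotenone rats 16, 13 and 9. The net intensities behind these, on the scanner's linear scale before normalization, were 295, 293 and 455 in solvent and 81.3, 257 and 231 in rotenone rats. All 3 rotenone rats lay below all 3 solvent rats, but the space between the highest rotenone and the lowest solvent rat was 0.09, smaller than the range within the solvent rats (0.52) or the rotenone rats (0.91). Rat 16 was far lower than the other rotenone rats. The means were 8.56 ± 0.28 in solvent and 7.94 ± 0.51 in rotenone rats (SD, n = 3). The difference was -0.62 ± 0.26 (SE) with a 95% interval from -1.19 to -0.04, or 0.651-fold (0.437 to 0.969), with a limma p of 0.0372 that became 0.895 when adjusted. It was -0.32 when rotenone rat 16 was left out, -0.46 when solvent rat 1 was, -0.68 when solvent rat 11 was and -0.41 with array weights, and in these 4 settings the unadjusted p was no longer below 0.05. Nor was it with background subtraction, without the filter on dim probes, or with the authors' scaled values. All 6 spots of this probe carried the scanner's irregular mark, as did all 6 of Hspb8, so neither was tested with marked spots left out. Of all probes tested 1.23% had a lower difference.

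Hspb8 encodes a small heat shock protein that works with Bag3 and Hsp70 to send misfolded proteins to autophagy. Its probe GE13579 lay at 7.67, 7.45 and 7.80 in solvent rats 11, 7 and 1 and at 7.61, 7.58 and 7.72 in rotenone rats 16, 13 and 9. The rotenone rats all fell within the solvent range. Both means were 7.64, with an SD of 0.18 in solvent and 0.07 in rotenone rats, and the 95% interval of the difference ran from -0.37 to 0.36, or 0.776-fold to 1.29-fold (limma, adjusted p = 1.00).

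The measured small heat shock genes were set against each other within each rat. Taking each gene as a deviation from its own solvent mean, Cryab minus Hspb8 was -0.14, -0.01 and 0.16 in solvent rats 11, 7 and 1, and -1.18, -0.24 and -0.43 in rotenone rats 16, 13 and 9. The rotenone rats were all below the solvent rats. The mean gap differed by -0.62, and by -0.34 without rotenone rat 16. An exact two-sided permutation test gave p = 0.1, the smallest that 3 rats against 3 allow, and 0.2 after adjustment over the 2 gaps compared. This pair was compared with earlier values of Cryab known, and the adjustment does not account for that choice. The difference of Hspb8 was -0.00066, so the gap largely repeats the difference of Cryab and adds little to it. With 2 genes, the median difference of the small heat shock genes, -0.31, is the midpoint between them, and it was -0.15 without rotenone rat 16, -0.19 without solvent rat 1 and -0.18 with array weights.

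**Figure D2:**
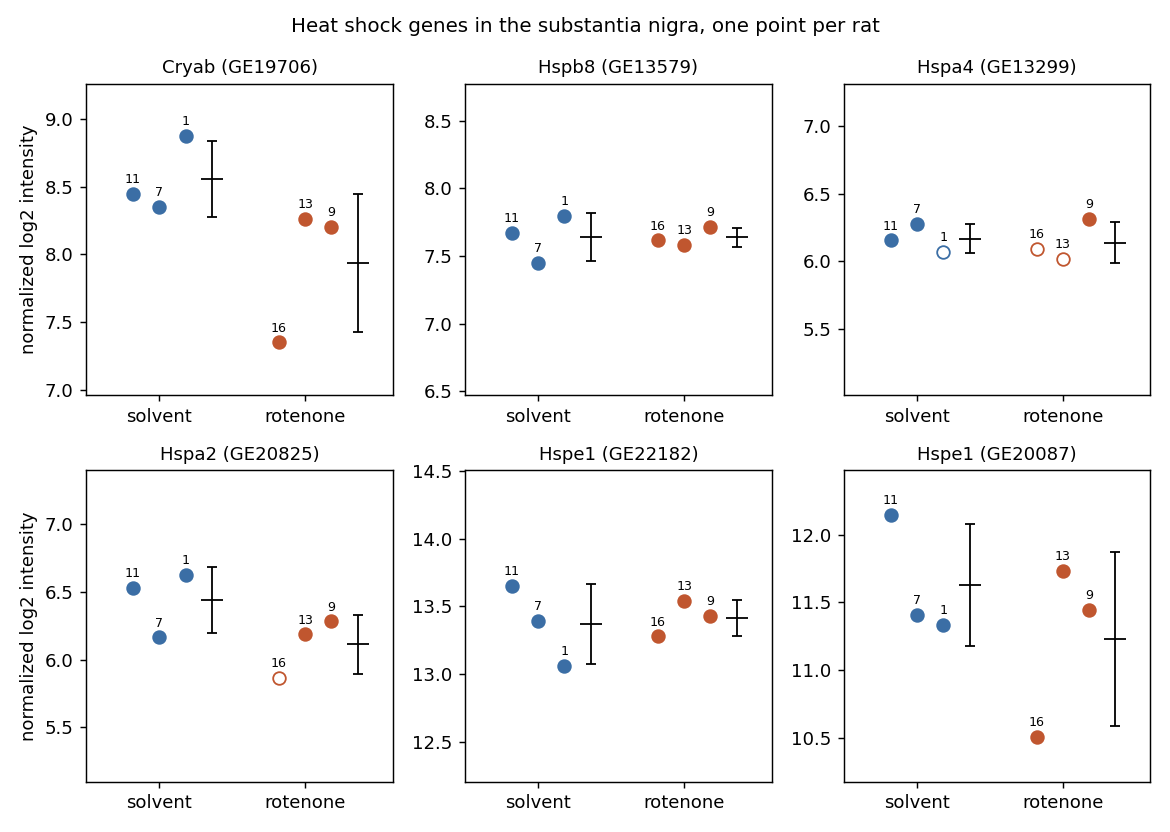
Normalized log2 intensity of each of the 6 probes (y axis, each panel on its own range of equal height) in solvent (blue) and rotenone (orange) rats, 1 point per rat with its number; open points were not above background, and the bar shows the mean and SD of 3 rats. Cryab shows its 3 rotenone rats, between 7.35 and 8.26, below the solvent rats, while in the other panels the groups overlap.

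Hspa4 encodes Apg-2, an Hsp110 relative that exchanges the nucleotide of Hsp70. Its probe GE13299 was dim, at 6.15, 6.28 and 6.07 in solvent rats 11, 7 and 1 and 6.09, 6.01 and 6.31 in rotenone rats 16, 13 and 9. It was above background in solvent rats 11 and 7 and rotenone rat 9. The groups overlapped, and the difference was -0.03 with a 95% interval from -0.39 to 0.34 (limma, adjusted p = 0.986). At this brightness the offset of the background correction holds values together, so a change of true level would appear smaller.

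Hspa2 encodes an Hsp70 best known from the testis, where it is needed for sperm development, and it is also made in brain. Its probe GE20825 was at 6.53, 6.16 and 6.63 in solvent rats 11, 7 and 1 and at 5.87, 6.19 and 6.28 in rotenone rats 16, 13 and 9. It was above background in every rat but rotenone rat 16, and solvent rat 7 lay within the rotenone range. The means were 6.44 ± 0.24 in solvent and 6.11 ± 0.22 in rotenone rats (SD, n = 3), a difference of -0.33 ± 0.19 (SE) with a 95% interval from -0.75 to 0.10 (limma, adjusted p = 0.895). Without rotenone rat 16 it was -0.21, and with the background subtracted in place of normexp it was -1.54, on net intensities of 2.2 to 49.2.

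Hspe1, the mitochondrial Hsp10, was bright at both of its probes, and the probes did not give the same picture. At GE22182 the solvent rats 11, 7 and 1 had 13.65, 13.39 and 13.06 and the rotenone rats 16, 13 and 9 had 13.28, 13.54 and 13.43. The rotenone rats lay within the solvent range. The difference was 0.05 with a 95% interval from -0.37 to 0.47 (limma, adjusted p = 0.973).

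At GE20087 the solvent rats 11, 7 and 1 had 12.14, 11.40 and 11.33 and the rotenone rats 16, 13 and 9 had 10.51, 11.73 and 11.44. Rat 16 was the lowest and solvent rat 11 the highest, and between them rotenone rats 13 and 9 lay above solvent rats 7 and 1. The difference was -0.40 ± 0.32 (SE) with a 95% interval from -1.11 to 0.32 (limma, adjusted p = 0.897). It was -0.04 without rotenone rat 16 and -0.14 without solvent rat 11.

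As deviations from the solvent means, GE20087 minus GE22182 was 0.23, -0.25 and 0.02 in solvent rats 11, 7 and 1 and -1.03, -0.07 and -0.25 in rotenone rats 16, 13 and 9. Rat 16 was again the rat that stood apart, and the groups overlapped. The mean gap between probes was -0.45 with rotenone relative to solvent and -0.16 without rat 16 (exact two-sided permutation test, p = 0.3, adjusted p = 0.3). Which stretch of the transcript each probe reads was not examined.

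The median difference of the 3 measured genes outside the small heat shock class (Hspa4, Hspa2 and Hspe1) was -0.03, beside -0.31 for the small heat shock genes, which have 2 measured members. With the mean over the probes of Hspe1 in place of its brighter probe the first of these was -0.18. The medians rest on few genes, and the value of the small class comes from Cryab.

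**Figure D3:**
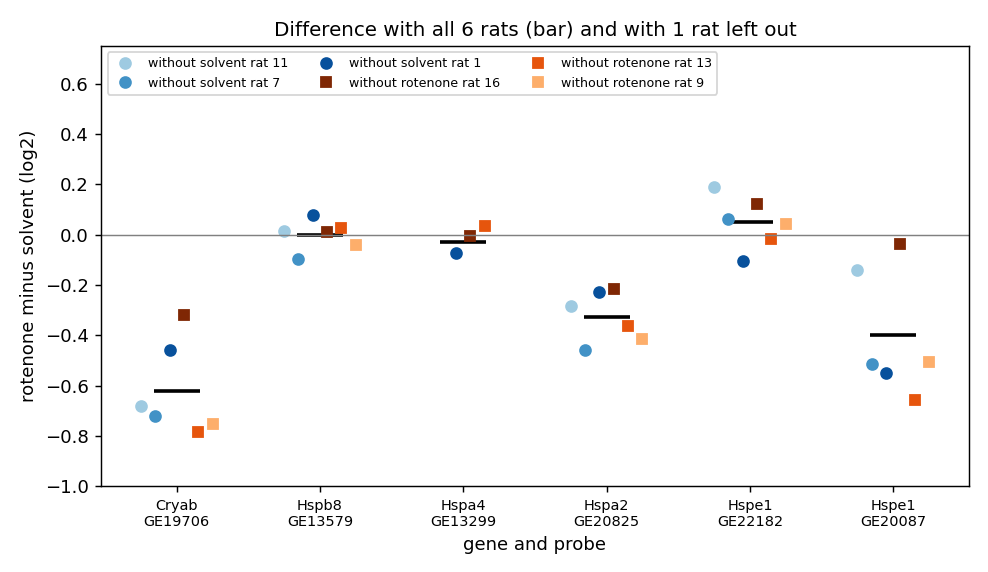
Difference rotenone minus solvent on the log2 scale (y axis) for each member probe (x axis), with all 6 rats (black bar) and with each rat left out in turn (circles for solvent, squares for rotenone rats). Cryab ranges from -0.79 to -0.32 and GE20087 of Hspe1 from -0.66 to -0.04, in both cases nearest to 0 without rotenone rat 16; Hspa4 has fewer points because it was not tested where a rat with a spot above background was left out.

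The values of rat 16 were set beside marker genes of cell types, since Cryab is made mainly by glia. Oligodendrocyte markers, of which 11 of 15 were tested, had a median deviation of -0.30, -0.04 and 0.30 in solvent rats 11, 7 and 1 and of -0.21, 0.00 and -0.22 in rotenone rats 16, 13 and 9. The groups overlapped, 7 genes were lower and 4 higher, and the median difference was -0.14 (-0.09 without rotenone rat 16). The myelin gene Mbp differed by -0.38 and Mog by -0.14, while the 3 probes of Mobp, another myelin gene, differed by 0.25, -0.63 and -1.0 and so did not give one direction. Without rotenone rat 16 Mbp differed by -0.47 and Mog by 0.06, and the probes of Mobp by 0.14, -0.42 and -0.57, in the same order. None of these passed the adjusted test.

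Astrocyte markers (7 of 11 tested) had medians of -0.05, 0.00 and -0.11 in solvent rats 11, 7 and 1 and -0.44, 0.34 and 0.12 in rotenone rats 16, 13 and 9. Of these genes 4 were higher and 3 lower with rotenone. The median difference of the astrocyte list was 0.02, or 0.18 without rotenone rat 16 and -0.11 without rotenone rat 9. Neuron markers (6 of 10 tested) were all lower with rotenone, with a median difference of -0.19, or -0.03 without rotenone rat 16. Their medians were 0.19, -0.01 and -0.26 in the solvent rats and -0.71, -0.02 and -0.03 in the rotenone rats. Rat 16 was thus the lowest in both the astrocyte and the neuron list. It was also the lowest for the 6 GABA neuron markers (6 of 6 tested), at -0.38 against -0.11 to 0.25 in the other rats, and the highest for markers of meninges and choroid plexus (2 of 5 tested), at 0.70 against -0.55 to 0.56. The latter list had a median difference of 0.33, and of 0.14 without rat 16 and 0.05 without solvent rat 11. Dopamine neuron markers (9 of 11 tested) had medians of -0.17, 0.03 and 0.14 in the solvent rats and -0.19, -0.30 and 0.05 in the rotenone rats, and did not single out rat 16. Their median difference was -0.17, which is the value of Pitx3, a probe above background in solvent rats only. Of the 9 dopamine neuron markers, 5 were lower and 4 higher with rotenone, and none was called after adjustment. Nr4a2 differed by -0.79, Slc18a2 by -0.54 and Foxa2 by -0.29, or by -0.47, -0.54 and -0.19 without rotenone rat 16. With probes above background on all 6 arrays the median difference of this list was 0.04. That filter leaves out Nr4a2, Foxa2 and Pitx3, which were all lower with rotenone. Microglia markers (3 of 8 tested) and markers of endothelium and pericytes (4 of 8 tested) had median differences of -0.06 and 0.00, and that of blood (2 of 3 tested) was 0.07. The part of cell type makeup in the Cryab values was not tested.

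**Figure D4:**
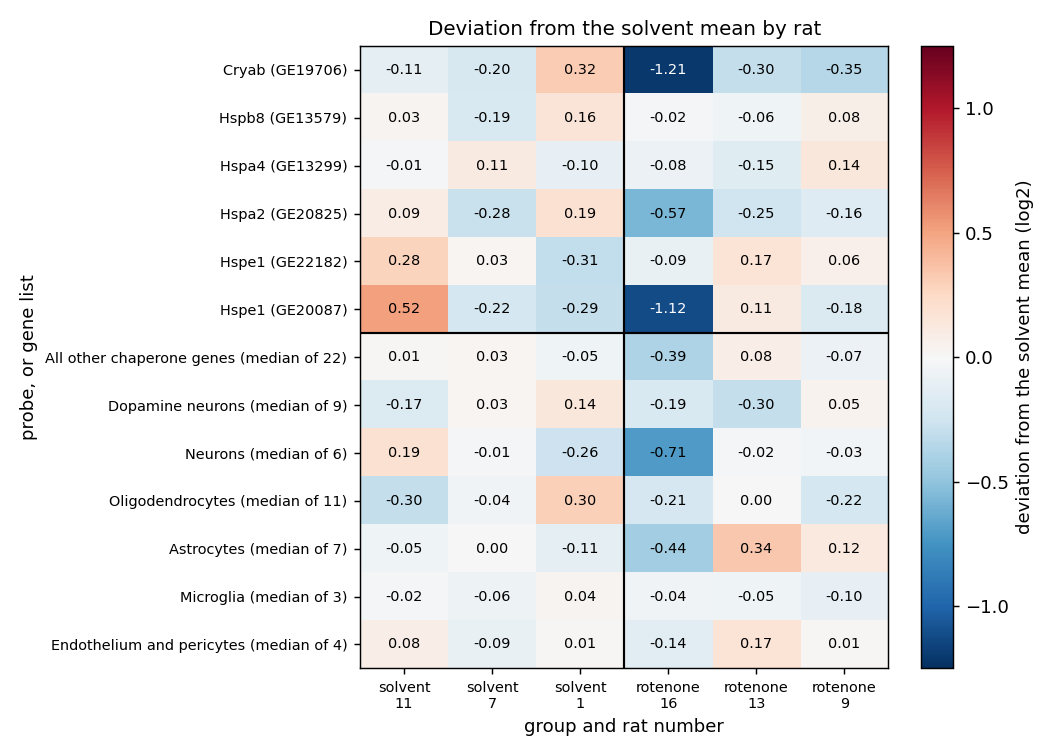
Deviation from the solvent mean on the log2 scale (colour and printed value) for each member probe and for the median of the other chaperone genes and of marker lists (rows), by rat (columns). Rotenone rat 16 has the darkest cells, at -1.21 for Cryab and -1.12 for GE20087 of Hspe1, and also the lowest medians of the other chaperone genes (-0.39) and of the neuron markers (-0.71).

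The other chaperone genes came from lists of 112 genes, mostly of the cytosol and mitochondria. Sil1 and Hspa13 of the endoplasmic reticulum were also in them. Of the 112 genes, 27 had a named probe and 22 were tested. None was called after adjustment, 13 had a lower mean and 9 a higher one with rotenone, and the median difference was -0.11, or -0.02 without rotenone rat 16 and -0.22 without rotenone rat 13. Per rat the median deviation was 0.01, 0.03 and -0.05 in solvent rats 11, 7 and 1 and -0.39, 0.08 and -0.07 in rotenone rats 16, 13 and 9. The shift lay in rat 16, and the other rotenone rats were near the solvent rats.

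Among the partners of Hsp70, Hspbp1, which promotes release of nucleotide and inhibits Hsp70 folding activity, had the lowest p of the lists. Its probe GE21472 was at 9.63, 9.88 and 9.77 in solvent rats 11, 7 and 1 and at 9.41, 9.44 and 9.19 in rotenone rats 16, 13 and 9. The groups did not overlap, and here rat 9, not rat 16, was the lowest. The difference was -0.41 ± 0.16 (SE; limma, adjusted p = 0.895), and it lay between -0.48 and -0.34 with any 1 rat left out. Its unadjusted limma p of 0.0292 was above 0.05 without solvent rat 7 (0.104), solvent rat 1 (0.0643) or rotenone rat 9 (0.106). The same held with background subtraction (0.0909), an offset of 16 (0.0710), the scaled intensity (0.202) and the file date as a block (0.103). Of the 22 genes Hspbp1 was the one with an unadjusted p below 0.05, a share of about 1 in 22 that is near the 4.94% of all probes.

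Grpel1, the exchange factor of mitochondrial Hsp70, had the lowest difference of the lists. Its probe GE20990 lay at 8.65, 9.06 and 8.23 in solvent rats 11, 7 and 1 and at 7.58, 8.74 and 8.27 in rotenone rats 16, 13 and 9. Only rat 16 was outside the solvent range. The difference was -0.46 (limma, adjusted p = 0.895), and it was -0.15 without rat 16 and -0.25 without solvent rat 7.

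Ywhae, the 14-3-3 epsilon protein, an adaptor that binds HSF1 among many other partners, had the highest difference. Its probe GE20965 was at 11.61, 11.70 and 11.59 in solvent rats 11, 7 and 1 and at 12.35, 11.83 and 11.77 in rotenone rats 16, 13 and 9. The groups did not overlap, with rat 16 the highest. The difference was 0.35 (limma, adjusted p = 0.895), and 0.17 without rat 16. With Hspbp1 this made 2 of the 22 genes whose groups did not overlap, against the 9.97% of all probes.

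Co-chaperones of Hsp90 had 5 tested genes of 19, and all 5 had lower means, with a median of -0.25, or -0.10 without rotenone rat 16 and -0.14 without solvent rat 7. Stip1 (Hop), which bridges Hsp70 and Hsp90, was at -0.29, Nudc at -0.27, Sgta at -0.25, the kinase-loading factor Cdc37 at -0.21 and the phosphatase Ppp5c at -0.11. Without rat 16 these were -0.19, -0.06, -0.09, -0.10 and -0.22, in the same order. None of the 5 reached an unadjusted p of 0.05, and the list median per rat was -0.03, 0.10 and -0.29 in solvent rats 11, 7 and 1 and -0.51, 0.08 and -0.30 in rotenone rats 16, 13 and 9. The groups of that median overlap.

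The remaining lists were small and mixed. The cytosolic chaperonin subunits Tcp1 and Cct3 differed by 0.15 and 0.03. The J proteins Dnaja2, Dnajc2 and Dnajc21 differed by -0.11, 0.15 and 0.08, and by 0.20, 0.12 and 0.41 without rat 16. Hspb6, another small heat shock gene, differed by 0.14, in the opposite direction to Cryab, with a 95% interval from -0.28 to 0.56, and by 0.04 without rat 16. The mitochondrial proteases Yme1l1 and Spg7 differed by 0.05 and 0.10, the Hsp70 relative Hspa13 by -0.28, and the segregase Vcp by -0.30, and without rat 16 these were 0.05, 0.02, -0.18 and -0.11. Hsbp1, a binding protein of HSF1, differed by -0.36 at each of its 2 probes, with rat 16 at -0.82 and -0.75 from the solvent mean. Without rat 16 the differences were -0.13 and -0.17.

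The inducible Hsp70 gene Hspa1a, which HSF1 drives strongly under proteotoxic stress, was above background on 0 of 6 arrays, in both groups. Both groups therefore have only an upper bound there, and no fold is given. Lonp1 and Timm44 were also above background on 0 arrays, Hsf2 on 1 and Hspb3 on 2.

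**Figure D5:**
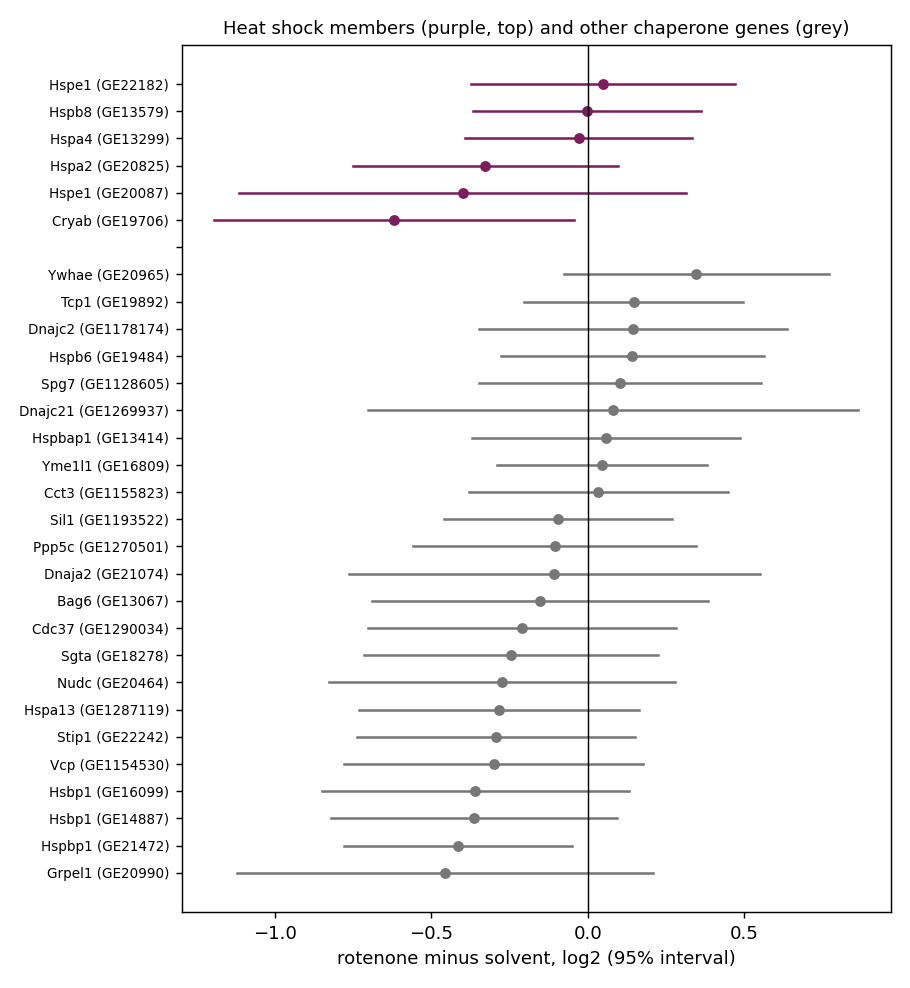
Difference rotenone minus solvent with its 95% interval from limma (x axis, log2) for the 6 member probes (purple, top) and the tested probes of the other chaperone genes (grey), sorted within each set. The intervals of Cryab and Hspbp1 lie below 0 and all others cross it, and none of the differences passed adjustment over all probes.

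The genes most like Cryab over the 6 rats were named by the smallest root mean square difference of profiles centred on their own means, among 1713 genes above background on every array. They were Ap2b1, a subunit of the clathrin adaptor (0.14), Pabpc1, the poly(A)-binding protein (0.15), and Degs1, a desaturase of ceramide synthesis (0.15). The median of this difference over all candidates was 0.49, and the root mean square of the profile of Cryab itself was 0.46. Their differences with rotenone were -0.52, -0.47 and -0.39, or -0.30, -0.27 and -0.16 without rat 16. As in Cryab, rat 16 was the lowest of the 6 in each. The lower values with rotenone and in rat 16 largely follow from choosing genes close to Cryab over these same rats. The likeness rests on 6 arrays that share the low array of rat 16, and it is given as a description.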

How the data were processed

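RNA of 6 rats was measured on 6 one-colour arrays. Per the file headers, the deposited scanner files give linear intensity values for each spot: the spot mean, the local background median, and the scaled difference made by the authors' software (name not given in the sources used here). A value table, also deposited, repeats that scaled intensity: linear, column medians between 0.994 and 1.00, with no direction. Of its columns 5 equal the scanner files for 100% of probes (relative tolerance 1e-06). That of solvent rat 7 does so for 0.898%, against 86.6% by row rank, so its rows are displaced.

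Of 33849 probes, 4675 (13.8%) were named for 4013 genes by accession, through a RefSeq table of GRCr8. The 256 negative and 240 positive control spots were left out. Background was corrected with normexp (offset 50, which pulls differences towards 0), then log2 values were quantile-normalized. Tested were probes that 3 or more of the 6 arrays left unmarked as near background or masked: 16708 probes, 2263 named genes. The scanner's irregular mark covers 29.4% to 36.3% of probes, and 20 of the 36 member spots (all 6 of Cryab and of Hspb8), and was kept. Groups were compared with limma 3.58.1 (R 4.3.3), two-sided, Benjamini-Hochberg over all probes tested, called at an adjusted p below 0.05. The code was tested on simulated data. With 3 rats a group, the number of arrays limits the precision, and an exact permutation test cannot go below 0.1. Lists use 1 probe a gene, that with the highest mean. The members, lists and tests were chosen with earlier results of these data known. Named genes are all members, other chaperone genes at an unadjusted p below 0.05 or with the largest difference in each direction, defining cell markers (1 is not reported here), and the 3 genes most like Cryab. Alternatives were background subtraction with a floor of 1, an offset of 16, median scaling, cyclic loess, no filter or 6 arrays above background, marked spots left out, the authors' scaled values, array weights, the file date as a block, the mean over a gene's probes, and each rat left out.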

Additional observations from a re-analysis of the deposited data

How the results depend on the processing

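No member probe and no other chaperone gene was called under any of the 18 alternatives. Precision is limited by 3 rats a group and 1 array that stands apart (rotenone rat 16), and the signal over background limits what Hspa4 and Hspa2 can show. The difference of Cryab was below 0 in 16 of its 17 alternatives, with a limma p between 0.0184 and 0.545. Its spots, and those of Hspb8 and Hspe1, were not tested with marked spots left out. No paired analysis was possible because the groups share no rat numbers. The file of solvent rat 7 carries another date than the other 5, so the date as a block rests on the other rats (Cryab -0.72).

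On all probes, 0 were called in each setting except without solvent rat 1, where 3 were (range 0 to 3 over left-out rats). Unadjusted p values below 0.05 numbered 825, and 1582 with no filter, 205 of 4283 probes with marked spots left out, 60 in the value table as deposited, and 536 to 1332 with a rat left out (536 without solvent rat 7, 547 without solvent rat 11 and also without rotenone rat 16, 1332 without rotenone rat 13). Of the 825, 59.8% were lower with rotenone, against 83.8% under median scaling and 41.0% with marked spots left out.

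The table as deposited mixes the rows of solvent rat 7 with those of other probes. It gave 2.55 for the median of the small heat shock genes, 0.42 for that of the other members, and 1.10 for Cryab, 0.42 for Hspa4, 4.01 for Hspb8, 1.00 for GE20087 of Hspe1 and 2.71 for Hspbp1. The median of the other members (-0.03) was -0.18 with subtraction, -0.18 with marked spots left out, -0.15 with the scaled intensity and with the displaced column restored, -0.18 with the mean over a gene's probes, and -0.20 to -0.0036 with a rat left out. The median rests on 3 genes or fewer, and further causes were not tested.

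Values near 0 changed sign: Hspa4 was 0.0060 with array weights, 0.028 with the date as a block and -0.074 to 0.033 with a rat left out. GE22182 of Hspe1 was -0.10 to 0.19 with a rat left out. Hspb8 was 0.0025 with subtraction, 0.00077 with an offset of 16, 0.011 with the scaled intensity and with the column restored, 0.045 with array weights, and -0.10 to 0.079 with a rat left out. The cause was not tested.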
